A study of Mus musculus with 3 samples.

Results

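Foxp3-positive T cells were picked out of droplet single-cell RNA sequencing of the mouse duodenum by their counts of unique molecular identifiers (UMIs, one per captured RNA molecule). A cell counted as a member if it had at least 1 UMI of Foxp3, at least 1 UMI of Cd3d, Cd3e and Cd3g together, and no UMI of Cd8b1. Cells with fewer than 500 UMIs, fewer than 200 genes or more than 15% of UMIs from mitochondria were left out. The members were thus chosen by their measured counts of Foxp3, the Cd3 genes and Cd8b1, and these values are no finding. The rule found 53 cells among 33284 kept cells. The label of regulatory T cells held for some of them only: 29 members held at least 3 of 6 further regulatory T cell markers, and 25 had a high share of cytotoxic-gene UMIs, 2 of them with such markers. The cells are therefore called Foxp3-positive T cells here.

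The series compared C57B6/J mice, male per its title, 30 days after saline or preformed fibrils (PFF, aggregates of recombinant mouse alpha-synuclein) were injected into the duodenal wall. A part of each digest was sorted for CD45 and another part was enriched on CD11b beads before both were joined, and the number of mice per library is not given in the sources used here. The labels list 2 saline samples, saline 1 in batch 1 and saline 2 in batch 2, and 1 PFF sample in batch 1. The files of both saline samples held 3 wells (1509, 3648 and 8732 cells) with the same barcodes and identical counts, so these wells were counted once, as the shared saline wells.

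Foxp3 encodes the forkhead transcription factor that defines regulatory T cells, CD4 T cells that restrain other immune cells. In the gut they limit responses to food and microbes, through surface molecules such as CTLA-4, which takes costimulatory ligands from antigen-presenting cells, and through the high-affinity interleukin-2 receptor. The small intestine also holds many intraepithelial lymphocytes, CD8 alpha and gamma-delta T cells that carry granzymes and the chemokine Ccl5.

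The sequence just before the start of Foxp3 is shown with those of the genes that differed most by fold between Foxp3-positive and other CD4 T cells and that are typical of regulatory T cells, Tnfrsf4 and Ctla4. Each is the 250 bases upstream of a start annotated in RefSeq (GRCm38.p6, plus strand; for Foxp3 the first of its starts): chrX:7579426-7579675 for Foxp3, chr4:156013445-156013694 for Tnfrsf4 and chr1:60908775-60909024 for Ctla4. Capitals mark TAAACA, a forkhead core motif, searched on both strands.
Foxp3: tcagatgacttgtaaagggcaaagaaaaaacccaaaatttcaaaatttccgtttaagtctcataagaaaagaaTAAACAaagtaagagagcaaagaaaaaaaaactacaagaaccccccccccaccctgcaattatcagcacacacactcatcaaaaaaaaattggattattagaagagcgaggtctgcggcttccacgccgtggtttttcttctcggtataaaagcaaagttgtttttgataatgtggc
Tnfrsf4: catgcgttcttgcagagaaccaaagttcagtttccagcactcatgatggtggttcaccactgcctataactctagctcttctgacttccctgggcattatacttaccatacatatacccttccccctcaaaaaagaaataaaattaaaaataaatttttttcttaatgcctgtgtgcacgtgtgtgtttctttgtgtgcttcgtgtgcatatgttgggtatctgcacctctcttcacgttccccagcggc
Ctla4: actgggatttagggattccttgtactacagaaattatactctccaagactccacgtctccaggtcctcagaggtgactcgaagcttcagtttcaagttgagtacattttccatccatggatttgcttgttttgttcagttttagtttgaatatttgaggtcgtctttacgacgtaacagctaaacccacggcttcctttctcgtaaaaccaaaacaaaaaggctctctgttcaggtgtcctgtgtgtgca
The motif stood once in this Foxp3 window and in neither of the other windows shown, and the window of a further Foxp3 start (chrX:7580233-7580482) did not hold it, and 3952 of 32851 upstream windows of the same length (12%) held it. No binding was measured in these cells, so the match is a description of letters only. Foxp3 lies on the X chromosome (7573644 to 7595245, GRCm38), Tnfrsf4 and Tnfrsf18 lie side by side on chromosome 4 (156013843 to 156016612 and 156026164 to 156028895), and Cd28, Ctla4 and Icos lie in a row on chromosome 1 between 60716800 and 61000320.

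Saline 1 gave 6 members, saline 2 gave 5, the shared saline wells gave 0, 1 and 13, and PFF 1 gave 28. Together they held 462005 UMIs, with 20216, 57322, 95854 and 288613 in these 4 libraries. The median depth of a member was 3358 UMIs in saline 1, 8282 in saline 2, 5467 in the shared wells and 8445 in PFF 1. Over all kept cells the median ran from 3241 in saline 1 to 10130 in saline 2. Over the 15 pairs of wells, 1 to 119 barcodes occurred in both, and 1 member had a barcode that another well also held, there with other counts.

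Foxp3 was thinly counted. The members held 132 Foxp3 UMIs: 31 cells had a single UMI, 7 had 2, 7 had 3, and 8 cells had 4 to 12. A Foxp3 UMI was also found in 3 kept cells without a Cd3 UMI, in 3 cells with Cd8b1 and in 1 barcode that was not kept, which lie just outside the rule.

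Cells with a Cd4 UMI stood apart. Among Cd3 cells without Cd8b1, 20 of 426 with a Cd4 UMI held Foxp3, or 4.69% (exact Clopper-Pearson 95% interval 2.89 to 7.16, counting error only), at a median depth of 7712 UMIs. Without a Cd4 UMI it was 33 of 26826 cells, or 0.123% (0.0847 to 0.173), at 6879 UMIs. B cells, which should lack Foxp3, gave 1 of 846 (0.118%, 0.00299 to 0.657) at 6449 UMIs, and cells with Epcam and Fabp1, which mark epithelium, gave 0 of 864, which allows a share of cells with a Foxp3 UMI of up to 0.347% (3 counts). The intervals of the cells without Cd4 and of the B cells overlapped, but that of the B cells rests on 1 cell and is wide. All kept cells without a Cd3 UMI gave 3 of 3992 (0.0752%, 0.0155 to 0.219), an interval that also overlapped that of the cells without Cd4. At 2 or more Foxp3 UMIs the shares were 12 of 426 cells with Cd4 (2.82%) and 10 of 26826 without (0.0373%), and 0 of 846 B cells. Thinned to 1000 UMIs a cell, 1.18% of the cells with Cd4 and 0.0264% of those without held a Foxp3 UMI.

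The 53 members fell into 2 kinds along cytotoxic genes that the rule did not use. The share of a cell's UMIs from Gzma and Gzmb (granzymes), Ccl5, Cd160, Xcl1, Fcer1g and Nkg7 was under 1% in 28 cells, the highest at 0.943%, and at least 1.53% in the other 25, up to 9.05%. The 1% line was drawn after the values were seen, so what follows on the 2 kinds is a description without a test, and 3 members lay between 0.5% and 2%. Cells with a low share are called low-cytotoxic, the others high-cytotoxic. Low-cytotoxic cells made up 3 of 6 members in saline 1, 1 of 5 in saline 2, 9 of 14 in the shared wells and 15 of 28 in PFF 1. The split was not particular to the members. The same line put 238 of 406 Foxp3-negative CD4 T cells (58.6%) and 491 of 2037 Cd8b1 T cells (24.1%) under 1%. Comparisons with CD4 T cells below use that class undivided.

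**Figure D1:**
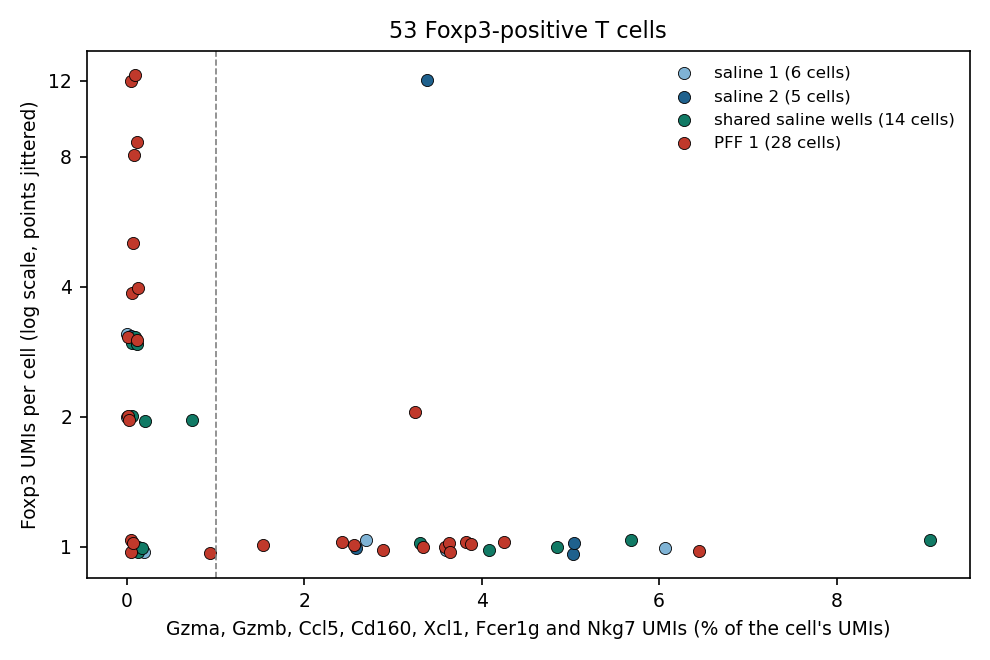
Foxp3 UMIs of each cell (log scale, points slightly jittered) against the share of its UMIs from 7 cytotoxic genes, coloured by library, with a dashed line at 1%. Of the 22 cells with at least 2 Foxp3 UMIs, 20 lie left of the line, and of the 31 cells with a single UMI, 23 lie right of it.

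The rule used Foxp3 counts, so they are set beside the kinds as a description only, with the libraries pooled. Among cells with a single Foxp3 UMI 8 were low-cytotoxic and 23 high-cytotoxic, and among cells with at least 2 UMIs 20 were low and 2 were high. A Cd4 UMI was present in 17 low-cytotoxic and 3 high-cytotoxic cells. The low-cytotoxic cells had a median of 6316 UMIs and the high-cytotoxic ones 8923.

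The low-cytotoxic cells carried the receptors of regulatory T cells. Ctla4 was found in 24 of 28 (85.7%), against 3 of 25 high-cytotoxic cells (12%), 21.7% of 406 Foxp3-negative CD4 T cells and 5.2% of B cells. At an even depth of 1000 UMIs these shares came to 41.7%, 2.99%, 6.18% and 0.647%. Icos, a costimulatory receptor, was in 24 of 28 against 1 of 25 cells. Tnfrsf4 (OX40), a receptor of the TNF family, was in 18 against 1, and Il2ra, the alpha chain of the interleukin-2 receptor, in 14 against 1. Izumo1r (folate receptor 4) was in 17 low-cytotoxic cells, with up to 23 UMIs, and in no high-cytotoxic cell. Tnfrsf18 (GITR), another TNF family receptor, separated the kinds less, with 21 of 28 against 13 of 25.

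Counted together, at least 3 of Ctla4, Il2ra, Tnfrsf18, Tnfrsf4, Izumo1r and Icos were present in 27 of the 28 low-cytotoxic cells and in 2 of the 25 high-cytotoxic ones. The same held for 68 of 406 Foxp3-negative CD4 T cells, 64 of 2037 Cd8b1 T cells and 0 of 846 B cells. Ikzf2 (Helios), a transcription factor often used as a regulatory T cell marker, did not follow this split: it was in 23 of 28 low-cytotoxic cells (median 15 UMIs) and in all 25 high-cytotoxic cells (median 14).

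**Figure D2:**
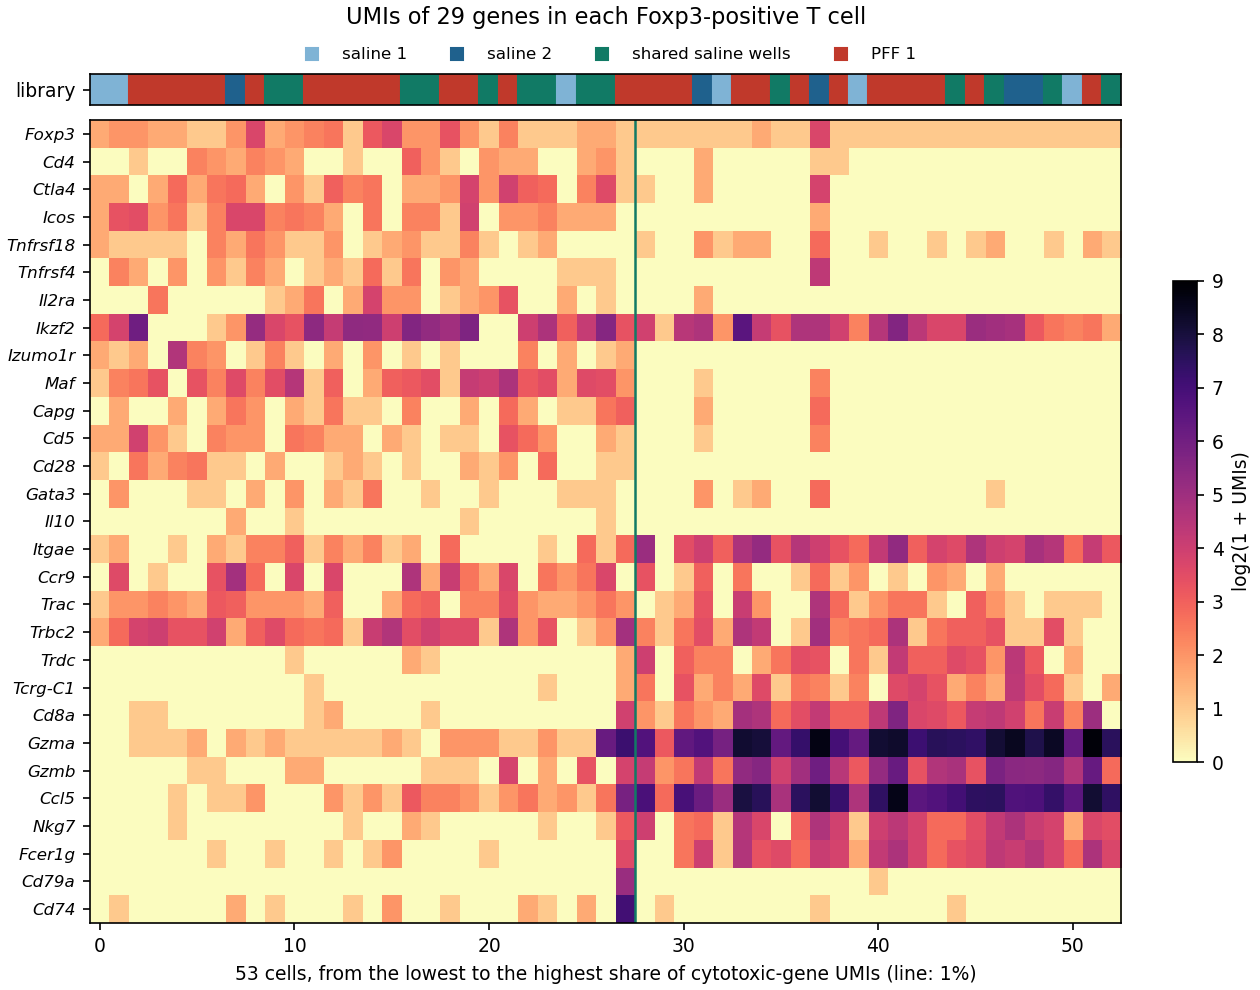
UMIs of 29 genes (rows, colour on a log2(1 + UMIs) scale) in the 53 cells, ordered by their share of cytotoxic-gene UMIs, with the library of each cell on top and a line at 1%. Left of the line Ctla4 and Icos are each seen in 24 of 28 cells, right of it Gzma in all 25, and Ikzf2 is seen on both sides.

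Transcription factors and T cell receptor genes differed along the same line. Maf, which regulatory T cells of the gut use, was in 26 of 28 low-cytotoxic cells (1050 CPM, UMIs scaled to a common total) and in 2 of 25 high-cytotoxic ones (19.5 CPM). Trdc, the constant segment of the delta chain, was in 4 low-cytotoxic cells, all of which also had Trac of the alpha chain, and in 19 high-cytotoxic cells, 13 of them with Trac. Cd8a was in 6 of 28 low-cytotoxic and 24 of 25 high-cytotoxic cells. Cd28, the costimulatory receptor of conventional T cells, was in 18 and 0 cells, and Cd5 in 21 and 2.

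Within the low-cytotoxic cells the markers of regulatory T cell subsets were mixed. Gata3, found in tissue regulatory T cells, was in 13 of the 28, 11 of them with Ikzf2. Nrp1 was in 12 cells, 11 of them with Ikzf2. Il1rl1, the interleukin-33 receptor, was in 6 cells and Klrg1 in 5, with 3 cells in common. Il10 was in 4 cells, all of them with Maf, and Areg in 1. Among homing genes the integrin chain Itgae was in 19, the gut homing receptor Ccr9 in 17 and both in 11, whereas Ccr7, a receptor of cells that recirculate through lymph nodes, was in 4. Of the cycling genes Mki67 and Top2a were detected and Ube2c was not, and 3 cells held at least 3 UMIs of these genes. The cell with the most, 31 UMIs, is the PFF 1 cell with B cell genes described next.

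A few cells did not follow their kind. In saline 2, a high-cytotoxic cell with 23699 UMIs held 12 Foxp3, 19 Tnfrsf4, 13 Ctla4 and 410 Gzma UMIs together. In PFF 1, a low-cytotoxic cell with 24912 UMIs held 1 Foxp3 and 146 Gzma UMIs with 34 UMIs of Cd79a, 17 of Cd79b and 27 of Ms4a1, genes of B cells. Doublets were kept in the main results. A doublet score removed 5 members, the PFF 1 cell among them, with 1 low-cytotoxic and 4 high-cytotoxic cells in all, and it left the saline 2 cell in. Over all members, markers of macrophages and monocytes summed to 0 UMIs in each saline library and 9 in PFF 1, with Csf1r at 0 throughout. Of the dendritic markers Flt3, Zbtb46 and Siglech were at 0, and Itgax had 12 UMIs. Plasma cell markers summed to 114 UMIs, with at least 3 in 14 members, 10 of them in the shared wells. Enterocyte markers summed to 66 UMIs, with at least 3 in 12 members. Mast cell and goblet cell markers summed to 39 and 22 UMIs, with at least 3 in 5 and 2 members.

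As a share of all Cd3 cells, members made up 0.115% in saline 1 (6 of 5200, exact Clopper-Pearson 95% interval 0.0424 to 0.251), 0.14% in saline 2 (5 of 3563, 0.0456 to 0.327), 0.147% in the shared wells (14 of 9505, 0.0805 to 0.247) and 0.254% in PFF 1 (28 of 11024, 0.169 to 0.367). PFF 1 gave the highest share, and its interval overlapped that of each saline library. The rule needs a Foxp3 UMI, so the share moves with depth. With every cell thinned to 1000 UMIs the shares were 0.0399% in saline 1, 0.0302% in saline 2, 0.0347% in the shared wells and 0.0493% in PFF 1, resting on 2, 1, 3 and 5 cells. Low-cytotoxic members alone were 0.0577%, 0.0281%, 0.0947% and 0.136% of Cd3 cells. With 1 PFF library no test of these shares was made.

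**Figure D3:**
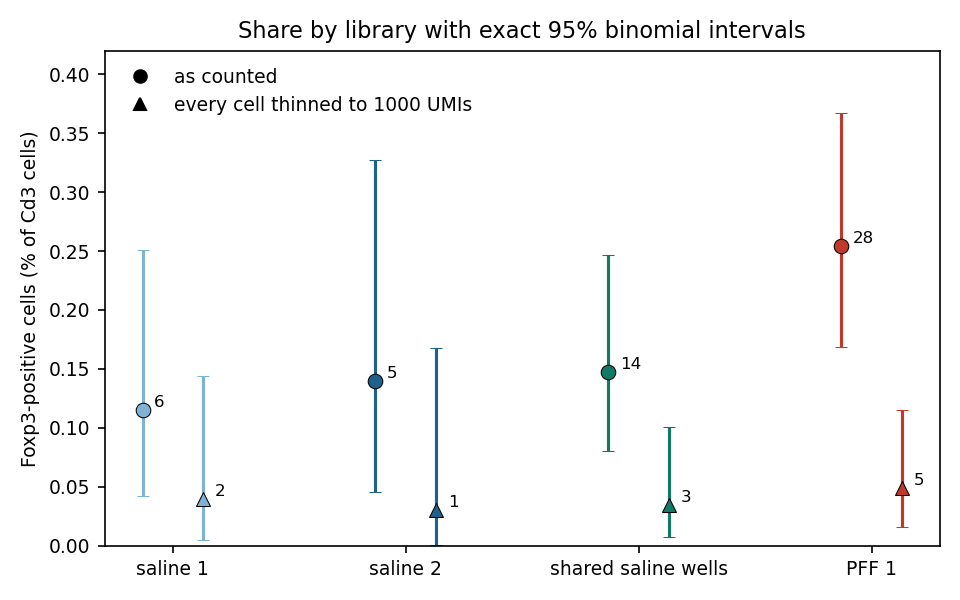
Foxp3-positive cells as a percentage of Cd3 cells in each library, as counted (circles) and thinned to 1000 UMIs a cell (triangles), with exact 95% binomial intervals and the number of cells beside each point. PFF 1 is highest as counted at 0.254%, and all thinned values lie between 0.0302% and 0.0493%, with overlapping intervals.

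To ask what the members express beyond other CD4 T cells, their summed counts were compared with those of 406 cells with the same Cd3 and Cd8b1 criteria, at least 1 Cd4 UMI and no Foxp3. The 4 libraries served as blocks, the genes of the rules were left out, and edgeR's quasi-likelihood test with Benjamini-Hochberg adjustment was used throughout. Of 3393 genes tested, 16 were higher (0.472%) and 40 lower (1.18%) at an adjusted p under 0.05. The higher genes were led by receptors of regulatory T cells.

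Tnfrsf4 stood at 247 CPM in saline 1, 349 in saline 2, 93.9 in the shared wells and 97 in PFF 1 in the members, against 6.83, 10.2, 5.63 and 14.8 in CD4 T cells. The classes did not overlap, and the difference was 3.47 ± 0.44 on the log2 scale (SE, adjusted p = 4.84e-05). The saline 2 cell with 23699 UMIs gave 30.6% of the Tnfrsf4 UMIs of all members. Ctla4 stood at 198, 366, 396 and 229 CPM against 20.5, 10.2, 89.4 and 61.4, which is 2.29 ± 0.33 (adjusted p = 0.000242). Again every library of the members lay above every library of the CD4 T cells.

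Icos stood at 643, 244, 292 and 222 CPM against 95.6, 30.7, 88.7 and 108, a difference of 1.59 ± 0.28 (adjusted p = 0.00264). Tnfrsf18 stood at 198, 192, 167 and 118 CPM against 61.5, 56.3, 49.3 and 42.6, or 1.52 ± 0.31 higher (adjusted p = 0.0084). Ikzf2 stood at 1830, 1500, 2780 and 2300 CPM against 1150, 655, 759 and 1010, or 1.17 ± 0.17 higher (adjusted p = 0.000257). The 3 genes were higher in the members in all 4 libraries, and both kinds of member contributed to Ikzf2, with 578 UMIs from low-cytotoxic and 474 from high-cytotoxic cells.

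**Figure D4:**
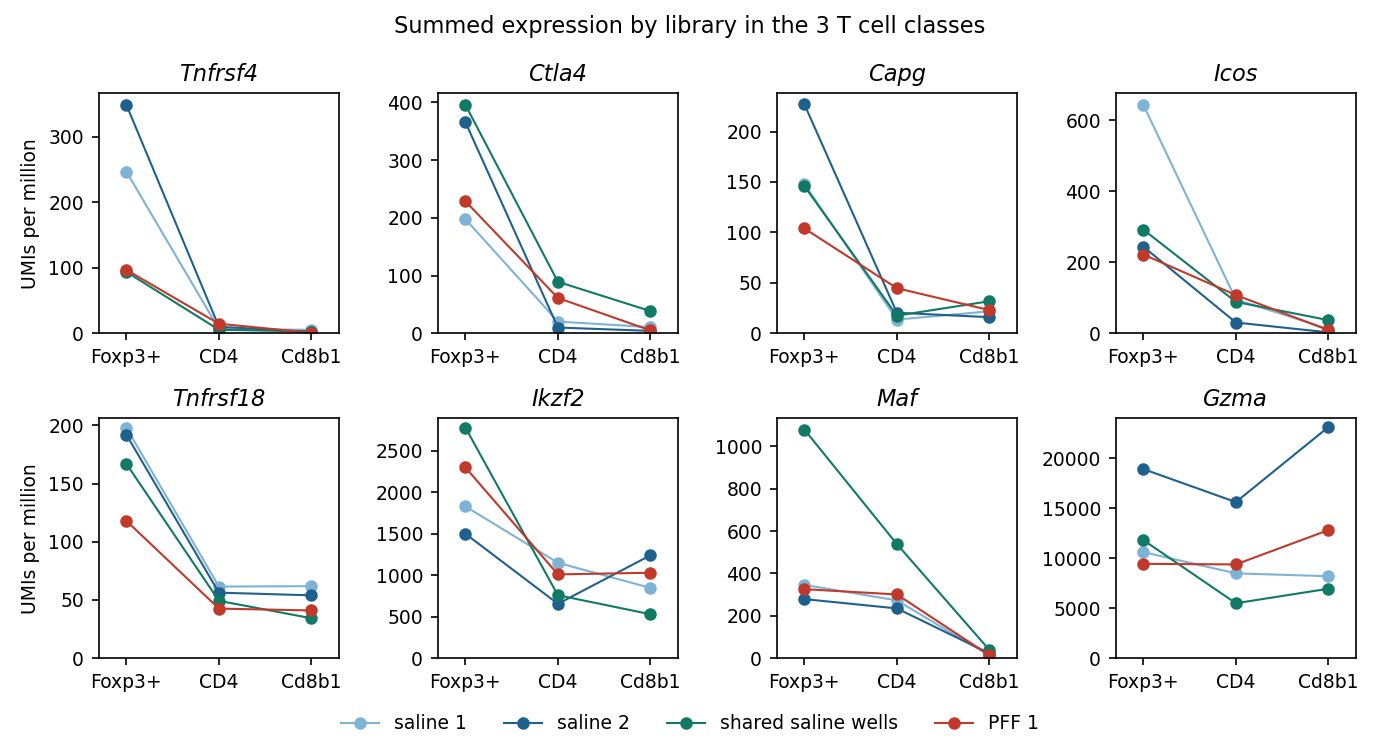
Summed expression (CPM) of 8 genes in Foxp3-positive, CD4 and Cd8b1 T cells, with 1 line per library. Tnfrsf4 and Ctla4 are higher in the members than in the other classes in all 4 libraries, whereas Gzma does not separate the members from CD4 T cells.

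Capg, an actin-capping protein, rose by 2.13 ± 0.41, and 52 of its 60 UMIs came from low-cytotoxic cells. The other higher genes named by the rule were Lclat1, an acyltransferase of membrane lipids (1.6), Fam129a (1.43), Zmat4 (1.36), Hopx (1.3), Samsn1, a signalling adaptor of lymphocytes (1.23), and the interferon-gamma receptor chain Ifngr1 (1.18), with adjusted p from 0.00177 to 0.0125. Zmat4 and Hopx need care: 120 of 121 Zmat4 UMIs came from high-cytotoxic cells, 40.5% from a single cell, and a single cell gave 34.9% of the Hopx UMIs. Mmd, Ighm, Nrip1 and Pip5k1b were also higher, by 0.84 to 1.12. Ighm, the heavy chain of IgM, was counted in 18 of 28 low-cytotoxic members and in 54.7% of CD4 T cells, while Cd79a was in 1 of those 28.

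The lower genes included 6 of 8 tested myeloid markers and both tested plasma cell markers of the fixed lists. The 12 lowest among those that were lower in all 4 libraries were genes of myeloid cells (Apoe, Pla2g7, Csf1r, C1qa, C1qb, C1qc, Mpeg1, Lyz2 and Apol7c), of plasma cells (Igha) and of antigen presentation (Cd74 and H2-Ab1). Pla2g7 and Csf1r had no UMI in the members and were at least 16.1-fold and 13.2-fold lower, taking 3 counts over all members as the floor. Both passed the low-count filter through the CD4 T cells, so they could only be called lower. In the CD4 class, plasma cell markers reached 69700 CPM in saline 1, where 10188 of 10200 UMIs lay in 1 cell, and 92.1 in saline 2, and 41 of 406 cells held at least 3 UMIs of macrophage markers. Cells were then left out if B cell, macrophage and dendritic markers and the plasma cell genes Jchain and Mzb1 summed to at least 3 UMIs. With them left out, 15 genes were higher and 8 lower of 2779. Igkc and Xbp1, counted among the plasma cell markers above, were not used for this removal, and all 14 members of the shared wells stayed in. Of the 16 higher genes 15 could then be tested and 10 were called, and of the 40 lower genes 15 could be tested and 5 were called. Tnfrsf4 had no test in this fit, and Tnfrsf18 (1.21, adjusted p = 0.083) and Hopx (0.53, adjusted p = 0.823) were not called.

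Some of the lower genes belong to T cells. Tcf7 and Bach2, transcription factors of naive and memory T cells, were lower by 1.91 ± 0.43 and 2.17 ± 0.43 in size (log2, adjusted p = 0.0195 and 0.00714), and Xcl1, a chemokine of cytotoxic cells, was lower by 1.79 ± 0.43 (adjusted p = 0.0354). Xcl1 was no longer called without cells holding markers of other cells (-1.4, adjusted p = 0.515), where Tcf7 was (-2.15, adjusted p = 0.00905) and Bach2 was not tested. With at least 2 Foxp3 UMIs required Tcf7 was not called (-1.44, adjusted p = 0.207) and Bach2 was (-2.06, adjusted p = 0.0268).

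By gene list, 16 of the 30 regulatory T cell signature genes passed the low-count filter, 7 were called higher (Ctla4, Ikzf2, Tnfrsf18, Tnfrsf4, Capg, Icos and Samsn1) and 0 lower. Tnfrsf4 and Capg were low in CD4 T cells (11 and 32.8 CPM over all libraries) and passed that filter through the members. Ctla4, Icos and Tnfrsf18 also needed the members to pass it, at 10.2, 30.7 and 42.6 CPM in their lowest CD4 T cell library. Outside the list the same held for Lclat1 (40.8 CPM over all libraries), Fam129a, Zmat4 and Hopx. The filter thus favoured genes that are high in the members, so the calls and median of this list are given as values only. The median difference of the 16 tested signature genes was 0.75, against -0.01 over all tested genes. Of all tested genes 0.472% were higher and 1.18% lower, so a list of this size with no call, as below, does not stand out from the rest. Of 20 costimulatory and inhibitory receptors, 14 were tested and 4 were higher, all of them also in the signature, with a median of 0.48. Of 18 genes of suppressor products, 9 were tested and none was called, among them Entpd1 (0.01 ± 0.24) and Nt5e (0.63 ± 0.22, adjusted p = 0.28), which make adenosine, and Tgfb1 (-0.18 ± 0.28). Of 20 transcription factors of effector regulatory T cells 12 were tested and none was called, with Prdm1 (Blimp-1) at 1.09 ± 0.33 (adjusted p = 0.139) and Maf at 0.37 ± 0.2. Of 22 cytotoxic and intraepithelial genes 15 were tested, 0 were higher and 1, Xcl1, was lower, with Gzma at 0.29 ± 0.14 (adjusted p = 0.61). No gene was called among 9 tested of 18 in the interleukin-2 pathway, 13 of 23 for homing and retention, 17 of 24 for T cell receptor signalling and 8 of 20 for the interferon response. Of 35 partners of Foxp3 and regulators of its locus 27 were tested, Ikzf2 was higher and Xbp1 lower, with a median of 0.02. Xbp1 is also a plasma cell marker, and without cells holding markers of other cells it was not tested and no gene of this list was lower.

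The cytotoxic list depended on the single-UMI members. With at least 2 Foxp3 UMIs required, which left 22 members, 44 of 2481 tested genes were higher (1.77%) and 65 lower (2.62%). Of the cytotoxic list 13 were tested and 9 were lower, with a median of -1.81 against -0.04 over all genes: Gzma fell by 1.81 ± 0.38, Ccl5 by 2.05 ± 0.46 and Fcer1g by 2.23 ± 0.4. Saline 1 and saline 2 held only 2 such members each, in saline 2 with the cell of 23699 UMIs among them. In saline 2 Ccl5 was higher in these members (9450 CPM against 7850 in CD4 T cells). Gzma there stood at 13800 against 15600, and Fcer1g at 534 against 1020. The receptors moved up, Tnfrsf4 to 4.69 ± 0.46, Ctla4 to 3.23 ± 0.4 and Icos to 2.72 ± 0.34. These 3 genes needed the members to pass the low-count filter in this fit too. The stricter cut is made on Foxp3 UMIs, which the rule already used, so these shifts are a description only. Neb (4.34 ± 0.49) and the TNF ligand Tnfsf11, or RANKL (2.65 ± 0.49), were higher here and had not passed the low-count filter with all members. Both passed it here through the members, as no library of CD4 T cells held more than 11.7 CPM of Neb or 29.6 of Tnfsf11. Genes tested in both fits and called only in this one included Rora (1.66 ± 0.36), Ltb (1.52 ± 0.33), Ccr9 (1.23 ± 0.27) and Maf (1.21 ± 0.28).

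Against 2037 Foxp3-negative T cells with Cd8b1, 74 of 6310 genes were higher (1.17%) and 67 lower (1.06%). This comparison uses the same 53 members as the one before. The 6 highest were Tnfrsf4 (5.93 ± 0.5), Tnfsf11 (4.96 ± 0.71), Klrg1 (4.87 ± 0.73), Ctla4 (4.56 ± 0.33), Maf (4.43 ± 0.27) and Icos (4.27 ± 0.33). Each was higher in all 4 libraries, with adjusted p of 7.48e-09 or less. All 6 were low in Cd8b1 T cells (1.99 to 29.1 CPM over all libraries) and passed the low-count filter through the members. Klrg1 had 24 UMIs in 6 members, 8 of them in a single cell.

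In CPM, Maf stood at 346 in saline 1, 279 in saline 2, 1080 in the shared wells and 326 in PFF 1 in the members, against 12.7, 22.6, 38.8 and 13.7 in Cd8b1 T cells. The classes did not overlap. Il2ra was higher by 3.42 ± 0.47 (adjusted p = 9.78e-11). In the signature list 22 genes were tested and 12 were higher, with a median of 1.35 against -0.05 over all genes. Il2ra, Nrp1, Socs2 and Capg of this list also passed the low-count filter through the members. In Cd8b1 T cells they stood at 9.91, 15.1, 7.8 and 27.7 CPM over all libraries. The calls and median of this list are therefore given as values only.

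The lowest 6, Siglech, Cox6a2, Ccnd1, Fmnl2, Tbc1d8 and Slc8a1, had no UMI in the members and were at least 6.73-fold to 32.9-fold lower. All 6 passed the low-count filter through the Cd8b1 T cells, so they could only be called lower. Siglech marks plasmacytoid dendritic cells, and 220 of the 2037 Cd8b1 T cells held at least 3 UMIs of dendritic markers. Among T cell genes Gzmk, Xcl1 and Cd160 were lower, and Gzma was not called (-0.02 ± 0.25).

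For PFF against saline within the members, PFF 1 was compared with the unshared wells of saline 1 and saline 2. This leaves 1 residual degree of freedom, and PFF 1 is assumed to vary like the saline libraries. edgeR called 0 of 1787 tested genes (0%), where 18 had a p under 0.05 before adjustment. DESeq2 called 0 as well, and 8 of its genes had such a p. With so few libraries, a gene that did not pass may still differ. Saline 1 is the library in the batch of PFF 1. A fit with batch as a term would leave no residual degree of freedom, so no value within the batch has a test.

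None of the regulatory T cell receptors tested was called, and Il2ra did not pass the low-count filter and has no test. Ctla4 stood at 229 CPM in PFF 1 (exact Poisson 95% interval 177 to 291), between 198 (53.9 to 507) in saline 1 and 366 (227 to 560) in saline 2. Il2ra stood at 139 (99 to 189) in PFF 1, against 98.9 (12 to 357) and 34.9 (4.23 to 126), and Icos at 222 (171 to 283), against 643 (342 to 1100) and 244 (134 to 410). Icos was lowest in PFF 1 and Il2ra highest, and the interval of PFF 1 overlapped those of both saline libraries for Ctla4, those of both for Il2ra, and that of saline 2 but not of saline 1 for Icos. On the log2 scale the differences were -0.35 ± 0.71 for Ctla4 and -0.72 ± 0.69 for Icos.

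By the rule for genes that did not pass, the 6 highest in PFF 1 were Aff3, H2-Eb1, Gm37240, Cd74, Slc44a2 and Creb1 and the 6 lowest Maco1, Klrg1, Neb, Zfyve16, Ppard and Psmc1. Aff3 had 64 UMIs in PFF 1 (222 CPM) and none in the unshared saline wells, at least 5.73-fold higher, but the shared saline wells had 230 CPM. All 86 of its UMIs lay in 12 low-cytotoxic cells, and the unshared saline wells held 3 and 1 such cells. Neb, the muscle protein nebulin, stood at 48.5 CPM in PFF 1 (26.5 to 81.4) against 445 (204 to 845), 174 (83.7 to 321) and 167 (95.4 to 271) in saline 1, saline 2 and the shared wells. Its PFF 1 value lay below all 3 saline values, with -2.37 ± 0.91 and an adjusted p of 0.999. A single cell held 6 of the 9 Neb UMIs in saline 1, 9 of 10 in saline 2 and 11 of 16 in the shared wells. The intervals do not cover this spread between cells.

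By list, 5 of 14 tested signature genes were above 0 in PFF 1 (median -0.37) and 1 of 15 tested cytotoxic genes (median -0.59), against 47.8% and a median of -0.03 over all genes. None of them was called. The mix of kinds differed between these libraries, with 3 of 6 members high-cytotoxic in saline 1, 4 of 5 in saline 2 and 13 of 28 in PFF 1. A single saline 2 cell held 410 Gzma, 282 Ccl5, 19 Tnfrsf4 and 13 Ctla4 UMIs. Whether the medians of these lists follow from this mix was not tested.

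The change with PFF was also compared between the members and Foxp3-negative CD4 T cells of the same libraries, shared wells included. Of 3393 genes 1 was called (0.0295%), Cd74, the invariant chain of MHC class II. Cd74 had 1, 3, 7 and 137 UMIs in the members of saline 1, saline 2, the shared wells and PFF 1 (49.5, 52.3, 73 and 475 CPM), and 2790, 2110, 1570 and 1550 CPM in CD4 T cells. The difference of the changes was 3.25 ± 0.48 (adjusted p = 0.0326). Of the 137 UMIs, 131 came from the PFF 1 cell with the B cell genes Cd79a, Cd79b and Ms4a1. Without it PFF 1 had 22.8 CPM, the difference was -1.14 ± 0.72, and no gene was called.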

How the data were processed

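The authors deposited matrices of raw UMI counts per gene and barcode for 32285 genes. Cell Ranger 7.0.0 made them, per the file headers, on mm10, per the submitters' processing notes. How wells were joined is not stated there. The members, the CD4 and Cd8b1 classes and the 25 gene lists were chosen with earlier results of these data known.

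Counts were summed per library and class. The fits used edgeR 4.0.16 in R 4.3.3 (TMM, filterByExpr, quasi-likelihood F test, 2-sided; Benjamini-Hochberg adjustment over all tested genes, threshold 0.05), with the library as a block where classes were compared. CPM are raw counts scaled to a common total of UMIs per class. Nothing in the labels says that libraries are separate animals, so p-values measure only the spread between libraries, which may be technical. Named genes were the 12 highest and 12 lowest called log2 differences against CD4 T cells, and 6 and 6 in the Cd8b1 and PFF comparisons, with the same sign in every library and at least 20 CPM in the higher class, plus list members. The chance of seeing a UMI at 1000 UMIs was computed for each cell from its own counts. Scrublet (scanpy 1.11.5), run on each well, marked less than 0.5% of cells by its own threshold, with 0.519% in shared well 2 as the exception, so doublets were kept and a removal by score rank was an alternative. DESeq2 1.42.0, RLE normalization, no low-count filter, other cell filters and leaving out each library were further alternatives. The fits were tested on simulated data. Genes were placed by GENCODE M21, and promoters came from RefSeq. UMI totals per library ran from 20788920 (saline 1) to 142955760 (PFF 1), and intervals cover counting error only.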

Additional observations from a re-analysis of the deposited data

Results flagged for a closer look

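The change of Cd74 with PFF differed between Foxp3-positive T cells and Foxp3-negative CD4 T cells by 3.25 ± 0.48 on the log2 scale (edgeR's quasi-likelihood test, Benjamini-Hochberg adjusted p = 0.0326; higher in PFF 1 than in each of the 3 saline libraries), and drew attention because the difference itself passed that test. H2-Aa, H2-Ab1 and H2-Eb1, the MHC class II chains that Cd74 escorts, had 42 of 46, 37 of 43 and 46 of 52 PFF 1 UMIs in the same cell that held 131 of 137 Cd74 UMIs. With the cells of high doublet score removed the difference was -0.95.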

How the results depend on the processing

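No paired analysis was possible because PFF and saline share only replicate number 1. Against CD4 T cells 56 genes were called. The count was 205 with no low-count filter, 109 with at least 2 Foxp3 UMIs, 30 with a Cd4 UMI required in the members, 0 with cells thinned to 1000 UMIs (27 genes tested, 2 at an unadjusted p under 0.05 in edgeR), and 23 without cells holding markers of other cells, an alternative chosen after seeing the data. Leaving out a library gave 22 (without the shared wells) to 116 (without saline 2), and 28 without PFF 1. Ctla4 and Ikzf2 stayed called in all 16 alternatives that tested them, from 1.96 to 3.23 and from 0.92 to 1.56 on the log2 scale, whereas Tnfrsf18 stayed called in 12 of 16 and Zmat4 changed sign to -0.23 with a Cd4 UMI required. Of the 16 higher genes, 5 stayed called without PFF 1 and 6 without the shared wells.

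Against Cd8b1 T cells 141 genes were called, 90 by DESeq2, 236 with at least 2 Foxp3 UMIs, 6 thinned to 1000 UMIs, and 64 (without PFF 1) to 170 with a library left out, with 80 without the shared wells. For PFF against saline the count of 0 became 1, Cd74 (2.96 ± 0.61), when the shared wells entered as a saline library of their own. The 1 gene whose change with PFF differed between the classes became 0 with RLE normalization, DESeq2, at least 2 Foxp3 UMIs, at most 10% mitochondrial UMIs, doublet scores removed, or markers of other cells left out, with 55, 23, 61, 52, 68 and 32 genes at an unadjusted p under 0.05, 6 with no filter, 9 with a Cd4 UMI required, and 2 to 3 with a library left out. Without the PFF 1 cell with B cell markers it was 0, with 59 genes at an unadjusted p under 0.05. Cd74 kept its size with RLE (3.24, adjusted p = 0.0501), DESeq2 (3.35, adjusted p = 0.179) and at most 10% mitochondrial UMIs (2.69, adjusted p = 0.349), and was -0.8, -0.95 and -1.14 with at least 2 Foxp3 UMIs, with doublet scores removed and without that cell. Thinned to 1000 UMIs, the shares of members among Cd3 cells fell to 0.0399%, 0.0302%, 0.0347% and 0.0493% in saline 1, saline 2, the shared wells and PFF 1. The causes were not tested. With 53 members, 3 counts over all of them correspond to 6.49 CPM, and lower levels could not be told from 0.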

Other observations

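Several genes outside the comparisons were found in the low-cytotoxic members, which were picked after their values were seen and are given as values. Ccr4 and Ccr2, chemokine receptors of cells entering tissues, were each in 8 of 28 cells (28.6%), with Ccr4 in 5.17% and Ccr2 in 3.69% of Foxp3-negative CD4 T cells. Itgb8, an integrin chain that activates TGF-beta, was in 28.6% of them, against 4.68% of CD4 T cells and 0 of 25 high-cytotoxic members. Of the cytokines Il17a, Il17f, Il22, Il21 and Il13 no UMI was counted in any member, and Ifng was seen in 1 of 28 and 2 of 25 cells.

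High-cytotoxic members held Kit in 60% of cells, Prf1 (perforin) in 60% and Cd244a in 96%, against 3.57% of low-cytotoxic members for each. Iigp1, an interferon-induced GTPase, was in 11 of 28 low-cytotoxic members and 0 of 25 others; the single low-cytotoxic cell of saline 2 held 23 of its UMIs, and PFF 1 held 6 over 4 cells.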
